A study of Mus musculus with 21 samples.

Results

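Long-term haematopoietic stem cells (LT-HSC) were compared with MPP3, a multipotent progenitor population downstream of them, in wild-type (WT) mice, across all genes with enough counts to test. The comparison rests on 6 of the 21 RNA-seq libraries of the series, 2 of WT LT-HSC and 4 of WT MPP3, taken by the population and genotype in their labels. All came from bone marrow of C57BL/6 mice aged 12 weeks, and each library was made from 100 to 200 sorted cells. Cells were stained for lineage markers, Sca-1, cKit, CD150 and CD48, and no stain for Flt3 is listed. Where the gates were drawn is not stated in the labels. A second set of libraries, 3 of LT-HSC and 4 of MPP3 from Phf6 knockout (KO) mice of the same strain and age, gave the same comparison in cells that lack Phf6, a chromatin-associated protein of the nucleus. The labels do not say whether Phf6 was removed in blood cells alone. WT MPP2, a further progenitor population with 4 libraries, entered the fit and is quoted beside some results.

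LT-HSC sit at the top of blood formation. Most of them are out of cycle, and they can rebuild all blood lineages for the life of a transplanted animal. MPP3 are short-lived, divide more often and give mostly granulocytes and monocytes. Lymphoid-primed progenitors, called MPP4, share the CD150- CD48+ surface of MPP3 and are told apart from them by Flt3. In mouse marrow LT-HSC carry CD150 and lack CD48, so the genes of these proteins differ between the sorts by selection.

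Total counts lay between 22812185 and 26158938 in the 6 libraries, and a floor of 3 counts corresponded to 0.102 to 0.122 CPM per library, where CPM are counts per 1000000 counts of the library, by its TMM-scaled size. Genes with at least 1 count numbered 23786 and 24827 in WT LT-HSC, against 21369 to 28501 in WT MPP3. Mitochondrial genes took 3.97% and 4.59% of the counts in WT LT-HSC, against 2.35% to 4.93% in WT MPP3. Phf6 had 5.75, 10.01 and 13.2 CPM in KO LT-HSC, against 8.12, 2.45, 12.1 and 13.3 CPM in KO MPP3, while in WT it had 177 and 124 CPM in WT LT-HSC, against 191, 143, 54.4 and 135 CPM in WT MPP3. WT LT-HSC 2 and WT MPP3 2 carried counts of the Y-linked gene Ddx3y (4277 and 5051), and the other 4 libraries had at most 1. Neutrophil markers stood high in single libraries of both groups: their 15 genes summed to 16.2 and 4747 CPM in WT LT-HSC, against 1941, 35.5, 27.3 and 29.8 CPM in WT MPP3, and their part in the results was not tested. The first principal component of the 6 libraries held 40.9% of the variance and set the WT LT-HSC libraries apart from the WT MPP3 libraries, and the second, with 18.3%, set WT MPP3 1 and 2 apart from WT MPP3 3 and 4.

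Of the sort genes, Slamf1, which encodes CD150, had 64.1 and 52.03 CPM in WT LT-HSC, against 1.63, 0.06995, 0.0352 and 1.99 CPM in WT MPP3. Cd48 had 13.7 and 5.57 CPM in WT LT-HSC, against 523, 443, 544 and 506 CPM in WT MPP3. Both lay on the side the surface proteins do, with no overlap between groups (log2 fold change 5.97 ± 1.13 for Slamf1 and -5.71 ± 0.71 for Cd48, SE). Kit, which encodes cKit, had 277 and 372 CPM in WT LT-HSC, against 249.9, 226, 214 and 246 CPM in WT MPP3. Ly6a, which encodes Sca-1, had 270.3 and 247 CPM in WT LT-HSC, against 257, 215, 48.2 and 90.04 CPM in WT MPP3, so that WT MPP3 3 and WT MPP3 4 were low and the groups overlapped. Since the cells were chosen on these proteins, none of these differences is a result about the populations.

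In WT LT-HSC, 152 genes were higher and 80 lower than in WT MPP3 at an edgeR adjusted p under 0.05, of 21100 tested (0.72% and 0.379%, together 1.1%). Values are log2 fold changes of WT LT-HSC over WT MPP3 ± SE, from a fit of all 21 libraries, with n = 2 and n = 4. The higher genes had a median of 2.81 (range 0.69 to 11.43), and 67 of them exceeded 3. The lower genes had a median of -2.51 (range -12.48 to -0.65), and 29 lay below -3. In all 232 genes the 2 WT LT-HSC libraries lay beyond the 4 WT MPP3 libraries, as they did in 14.2% of all tested genes upward and in 12.0% downward. The mean of WT MPP2 lay between the means of WT LT-HSC and WT MPP3 in 127 of the 152 and 73 of the 80. The genes were selected for a gap between WT LT-HSC and WT MPP3, which by itself favours a mean in between. The share over all tested genes was not computed, so these counts do not show that WT MPP2 is intermediate. These are bulk libraries, so fewer cells of a type and less RNA per cell cannot be told apart.

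The size of these counts followed the libraries used. Without WT LT-HSC 1 the fit called 47 genes higher and 4 lower, without WT LT-HSC 2 it called 47 and 7, and without any 1 of the WT MPP3 libraries 83 to 99 and 33 to 48. Where 1 WT LT-HSC library is left, it is assumed to vary like the libraries of the other groups, here and in the single-gene results below. Of the 152 and 80 genes, 39 and 2 kept their call in all 6 fits that left 1 library out, and 79 and 49 with only the libraries numbered 1 and 2 compared. Since the groups did not overlap in these genes, their sign is fixed in such fits and is no sign of stability. The 2 lower genes that kept their call in all 6 fits were Adgrg3 and Cd48, and Cd48 is a gene of the sort. A fit of the 6 libraries alone called 384 higher and 368 lower (1.83% and 1.76% of 20965, together 3.59%), with 141 of the 152 and 73 of the 80 among them.

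**Figure D1:**
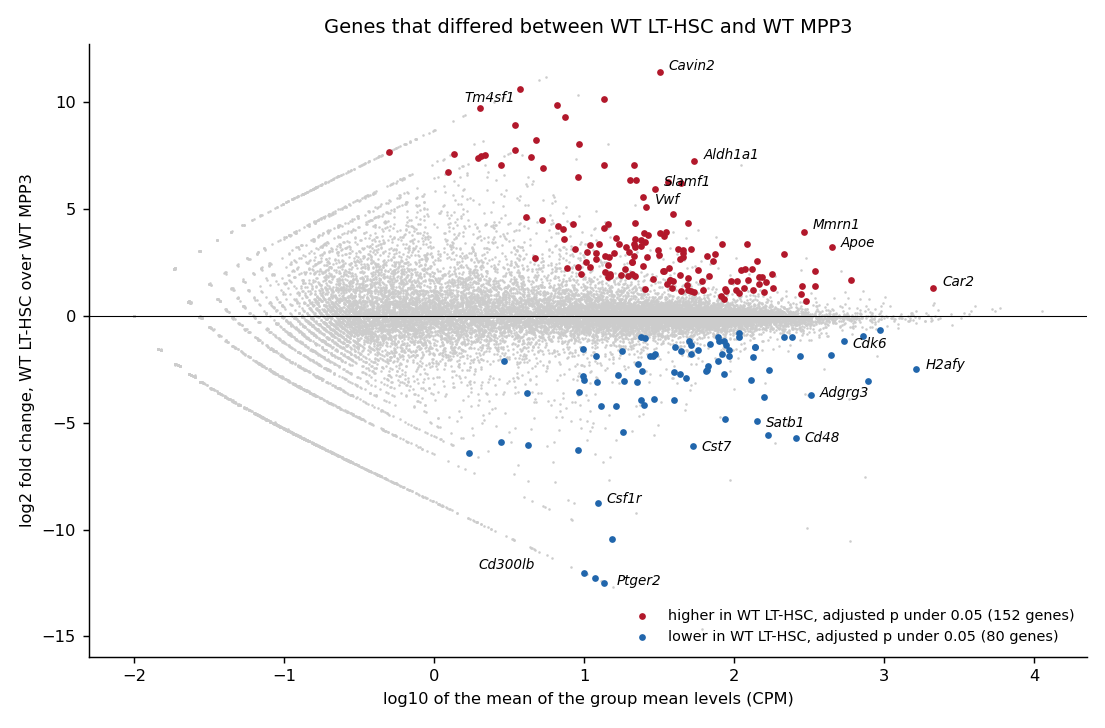
Each point is 1 of the 21100 tested genes, placed by the log10 of the mean of the 2 group means in CPM and by the log2 fold change of WT LT-HSC over WT MPP3. Red points are the 152 genes higher in WT LT-HSC and blue points the 80 lower, and the arcs of grey points at low level are genes with few counts in one group. Cavin2 lies at the top (11.43) and Ptger2 at the bottom (-12.48) of the called genes.

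Genes known for stem cell identity were higher in WT LT-HSC. Of the 40 genes in this list, all tested, 11 were called higher and 0 lower, against 0.72% and 0.379% of all tested genes. A positive fold change was seen in 37, and 29 did not overlap upward, where 14.2% of all tested genes did not. Their median was 2.04 against -0.03 over all tested genes. Tek, which encodes the angiopoietin receptor Tie2, had 49.9 and 36.5 CPM in WT LT-HSC, against 5.01, 5.28, 3.21 and 4.34 CPM in WT MPP3 (log2 fold change 3.28 ± 0.45, edgeR adjusted p = 0.000659). Esam, an adhesion molecule of endothelium and stem cells, had 164 and 141 CPM in WT LT-HSC, against 23.6, 16.1, 6.94 and 11.8 CPM in WT MPP3 (log2 fold change 3.38 ± 0.42, edgeR adjusted p = 0.000224). In both genes the WT LT-HSC libraries stood above all WT MPP3 libraries, and the nearest libraries of the groups lay 6.91 and 5.97-fold apart. Mllt3, a partner of transcription elongation complexes needed for stem cell maintenance, had 194 and 249 CPM in WT LT-HSC, against 44.4, 15.01, 14.2 and 11.9 CPM in WT MPP3 (log2 fold change 3.37 ± 0.45, edgeR adjusted p = 0.000502). WT MPP3 1 was the high library of its group for Mllt3 and still lay well below both WT LT-HSC libraries. Tek, Esam and Mllt3 kept their calls without any 1 of the 6 libraries.

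Other members of the list were apart without a call. Procr, the endothelial protein C receptor, had 85.1 and 98.2 CPM in WT LT-HSC, against 22.1, 30.05, 3.698 and 16.97 CPM in WT MPP3 (log2 fold change 2.33 ± 1.12, edgeR adjusted p = 0.549). Fgd5, a guanine nucleotide exchange factor used to mark LT-HSC, had 19.7 and 21.1 CPM in WT LT-HSC, against 3.79, 2.94, 1.66 and 2.53 CPM in WT MPP3 (2.90 ± 1.37, edgeR adjusted p = 0.534). Mecom, a zinc finger factor needed for stem cell self-renewal and named after its values were seen, had 118 and 141 CPM in WT LT-HSC, against 29.99, 43.3, 19.2 and 16.6 CPM in WT MPP3 (2.25 ± 0.58, edgeR adjusted p = 0.0803). The groups did not overlap in any of these 3. In the fit of the 6 libraries alone Fgd5 and Mecom passed (edgeR adjusted p = 0.00729 and 0.0183) and Procr did not (0.1).

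Of 7 tested Hox genes of the B cluster 0 were called, against 1.1% of all tested genes. Among the 7, 6 were positive and 5 did not overlap upward, where 14.2% of all tested genes did not. Their median was 2.36. Only 1 of the 7 averaged 10 CPM or more, and in the 6-library fit 2 were called higher. Hoxb5, a homeobox gene that marks long-term stem cells, had 18.4 and 16.9 CPM in WT LT-HSC, against 1.39, 0.979, 0.211 and 0.181 CPM in WT MPP3 (4.67 ± 1.31, edgeR adjusted p = 0.121). Of 15 tested genes of the HoxA cluster and Meis factors 1 was called, with 13 positive and a median of 0.85. Meis1, which binds DNA together with Hox proteins, had 456 and 429.6 CPM in WT LT-HSC, against 316, 235, 168 and 264 CPM in WT MPP3 (0.85 ± 0.24, edgeR adjusted p = 0.125). Both genes showed no overlap, and neither passed.

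**Figure D2:**
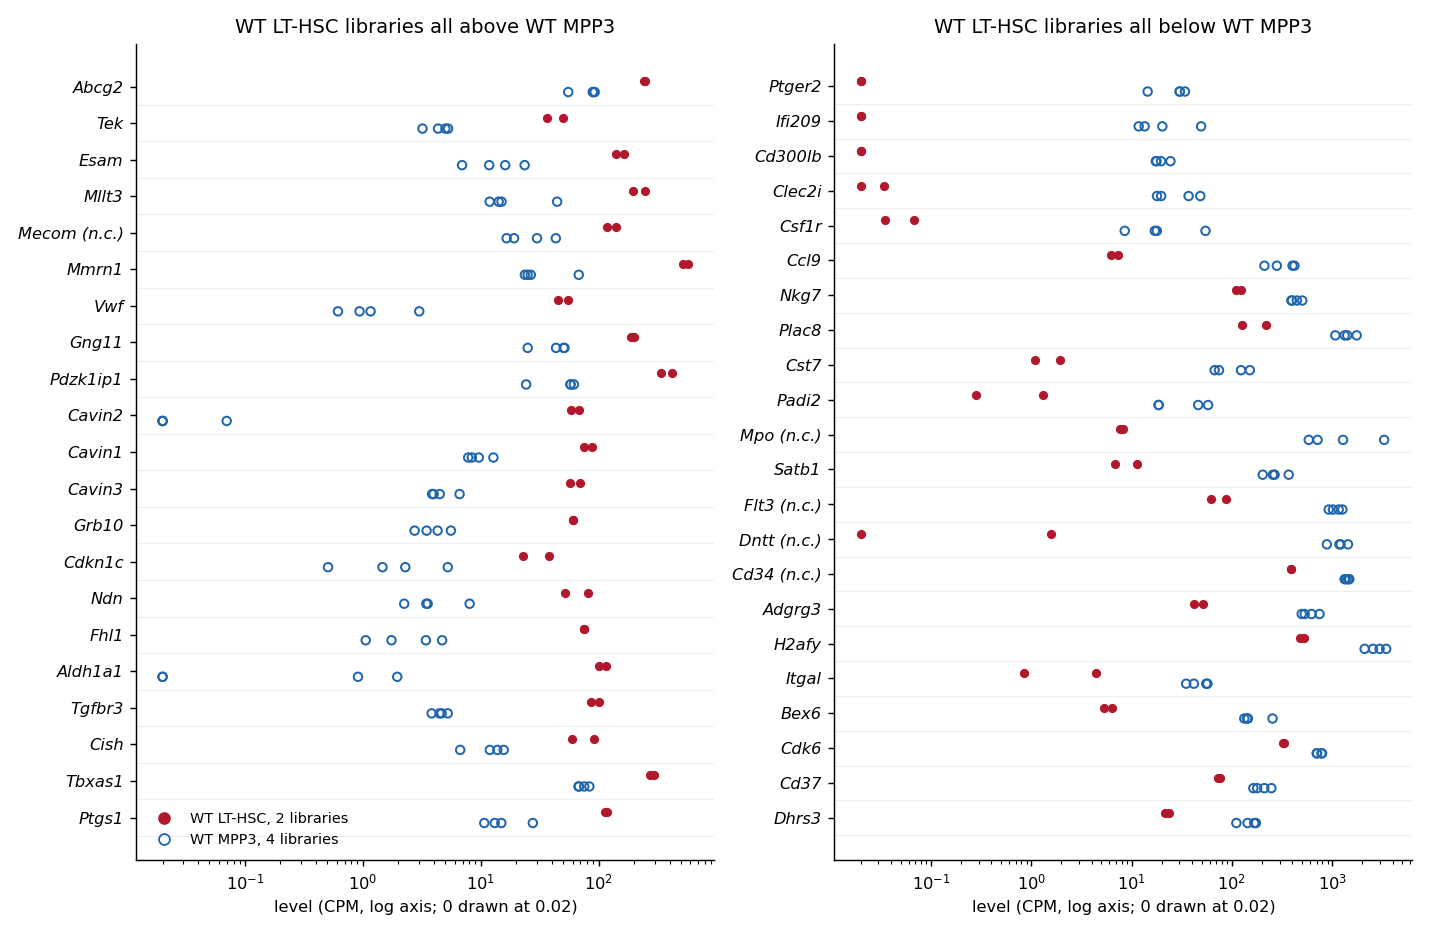
Level in CPM on a log axis, 1 point for each library, with the 2 WT LT-HSC libraries as filled red points above the 4 WT MPP3 libraries as open blue circles, and 0 drawn at 0.02. The left panel holds genes in which both WT LT-HSC libraries were above all WT MPP3 libraries, and the right panel genes in which both were below; n.c. marks genes that did not pass the edgeR threshold, such as Flt3 at 61.8 and 87.8 CPM in WT LT-HSC, against 923, 1161, 1017 and 1262 CPM in WT MPP3.

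Transcripts of platelets and their precursors were higher in WT LT-HSC. Of 28 tested genes of the megakaryocyte and platelet list 7 were called higher and 0 lower, against 0.72% and 0.379% of all tested genes. Among the 28, 25 were positive and 23 did not overlap upward, where 14.2% of all tested genes did not. Their median was 2.29. Vwf, which encodes the von Willebrand factor that tethers platelets to vessel walls, had 55.3 and 44.9 CPM in WT LT-HSC, against 0.937, 3.01, 1.16 and 0.615 CPM in WT MPP3 (log2 fold change 5.12 ± 1.05, edgeR adjusted p = 0.0198). Gng11, a G protein gamma subunit, had 186 and 199 CPM in WT LT-HSC, against 51.3, 43.5, 25.01 and 50.5 CPM in WT MPP3 (log2 fold change 2.18 ± 0.28, edgeR adjusted p = 0.000384). Pdzk1ip1, a small membrane protein also known as MAP17, had 339.9 and 417 CPM in WT LT-HSC, against 57.6, 57.8, 24.3 and 61.7 CPM in WT MPP3 (log2 fold change 2.91 ± 0.39, edgeR adjusted p = 0.000502). None of the groups overlapped. Mmrn1, which encodes the platelet granule protein multimerin and stands outside the list, had 514 and 573 CPM in WT LT-HSC, against 23.7, 67.8, 26.6 and 24.996 CPM in WT MPP3 (log2 fold change 3.93 ± 0.48, edgeR adjusted p = 0.000224). WT MPP3 2 was the high WT MPP3 library for Mmrn1, and the lower WT LT-HSC library lay 7.59-fold above it.

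Of the 2 chains of the platelet fibrinogen receptor, 1 was called. Itgb3, the beta chain, averaged 24.2 ± 1.21 CPM in WT LT-HSC and 3.41 ± 1.02 CPM in WT MPP3 (log2 fold change 2.83 ± 0.59, edgeR adjusted p = 0.0203; SD here and below, n = 2 and n = 4). Itga2b, the alpha chain, averaged 66.8 ± 16.02 CPM in WT LT-HSC and 24.2 ± 7.56 CPM in WT MPP3 (1.46 ± 0.60, edgeR adjusted p = 0.428), with no overlap. Itga2b passed in the fit of the 6 libraries alone (edgeR adjusted p = 0.0365) and in KO (edgeR adjusted p = 0.0304), and the difference between the chains was not tested. Pf4, a platelet chemokine, had 73.1 and 142 CPM in WT LT-HSC, against 4.32, 8.604, 3.03 and 10.2 CPM in WT MPP3 (4.04 ± 1.14, edgeR adjusted p = 0.128), with no overlap. In the list of 10 mature megakaryocyte markers, Itgb3 was the only call, and 8 did not overlap upward, where 14.2% of all tested genes did not. The summed level was 267 and 322 CPM in WT LT-HSC, against 43.7, 39.7, 36.98 and 70.5 CPM in WT MPP3. Gng11, Pdzk1ip1 and Mmrn1 kept their calls without any 1 of the 6 libraries. Vwf and Itgb3 lost their calls without WT LT-HSC 1, WT LT-HSC 2, WT MPP3 1 or WT MPP3 3 (edgeR adjusted p from 0.0582 to 0.163). Itgb3 lost its call without WT MPP3 2 (edgeR adjusted p = 0.0656). Vwf lost its call without WT MPP3 4 (edgeR adjusted p = 0.0745).

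Cavin1, Cavin2 and Cavin3, coat proteins of caveolae, were each higher in WT LT-HSC. Cavin2 had 58.5 and 68.4 CPM in WT LT-HSC, against 0, 0.06995, 0 and 0 CPM in WT MPP3, so that all 4 WT MPP3 libraries held 2 counts in sum against 3677 counts in WT LT-HSC, a ratio of 3467 with a 95% counting interval of 959 to 28643 (edgeR adjusted p = 0.000502). Cavin1 had 74.6 and 87.9 CPM in WT LT-HSC, against 12.8, 9.62, 7.82 and 8.39 CPM in WT MPP3 (log2 fold change 3.07 ± 0.32, edgeR adjusted p = 6.11e-05). Cavin3 had 57.1 and 69.2 CPM in WT LT-HSC, against 3.87, 6.61, 3.98 and 4.49 CPM in WT MPP3 (log2 fold change 3.74 ± 0.36, edgeR adjusted p = 2.89e-05). Both groups were tight in all 3 genes and did not overlap. Cavin1 and Cavin3 are outside the rule for naming genes and were added after their values were seen. Cavin1, Cavin2 and Cavin3 kept their calls without any 1 of the 6 libraries.

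The 250 bases before the RefSeq transcription start are shown for Cavin1 and Cavin2, and beside them those of Adgrg3 and Cd48, the genes with the smallest p values among those lower in WT LT-HSC, with Cd48 a gene of the sort. All were chosen after the values were seen, the build is GRCm38.p6, and each runs 5′ to 3′ on the strand of its gene. Capitals mark matches on either strand to 5 motifs. The letters searched for haematopoietic GATA-binding proteins were AGATAA. Those for proteins of the ETS family were CCGGAAG, and those for the myeloid factor PU.1 were GAGGAAG; the last 5 letters of both are the same. Those for RUNX proteins were TGTGGT. The CCAAT box, which the factor NF-Y binds, was searched by the 5 letters of its name. The first lies at chr11:100970616-100970865 on the minus strand, the other 3 at chr1:51288876-51289125, chr8:95017442-95017691 and chr1:171681742-171681991 on the plus strand. GENCODE M21 places Cavin1 at 100956733 to 100970887, so the Cavin1 window lies inside that gene model, and the 2 annotations differ in its start.
Cavin1: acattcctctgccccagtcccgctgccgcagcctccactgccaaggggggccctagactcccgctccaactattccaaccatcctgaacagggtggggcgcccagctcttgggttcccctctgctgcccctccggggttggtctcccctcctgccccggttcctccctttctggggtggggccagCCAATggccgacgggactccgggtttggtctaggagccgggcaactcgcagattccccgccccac
Cavin2: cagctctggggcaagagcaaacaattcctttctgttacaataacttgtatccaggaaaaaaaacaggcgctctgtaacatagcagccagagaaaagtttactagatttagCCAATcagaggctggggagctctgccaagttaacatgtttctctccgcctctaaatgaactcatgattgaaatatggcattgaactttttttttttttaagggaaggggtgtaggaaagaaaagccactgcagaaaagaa
Adgrg3: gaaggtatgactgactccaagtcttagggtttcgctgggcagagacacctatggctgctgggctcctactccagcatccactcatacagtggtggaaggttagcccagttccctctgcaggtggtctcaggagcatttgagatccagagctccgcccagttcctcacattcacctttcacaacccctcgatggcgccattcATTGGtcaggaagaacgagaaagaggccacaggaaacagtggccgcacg
Cd48: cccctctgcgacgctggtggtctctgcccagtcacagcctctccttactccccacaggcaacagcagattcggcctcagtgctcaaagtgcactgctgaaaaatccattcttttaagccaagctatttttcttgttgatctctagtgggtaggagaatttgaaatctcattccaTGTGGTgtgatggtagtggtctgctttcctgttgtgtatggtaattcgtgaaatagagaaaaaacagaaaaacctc
Cavin1, Cavin2 and Adgrg3 each held 1 CCAAT match, starting 65, 140 and 49 bases before the start (on the opposite strand in Adgrg3), and Cd48 held 1 RUNX match 76 bases before it. Cavin1 had a GC content of 67.6% and Cavin2 of 40.4%, so these windows differ in base composition. CCAAT was found in 34.2% of 27017 promoters of this length, in 33 of the 110 with an entry among the 152 genes higher in WT LT-HSC, and in 19 of the 55 (34.5%) among the 80 lower. The RUNX letters were in 14.2% of all, 8.18% of the higher and 12.7% of the lower. GATA letters were in 10.2%, 6.36% and 7.27%, ETS letters in 7.14%, 2.73% and 7.27%, and PU.1 letters in 10.4%, 12.7% and 9.09%. These shares are descriptions of the letters, without a test.

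Further genes with large increases were taken by fold change or level. Tm4sf1, a tetraspan membrane protein of endothelial cells, had 10.9 and 15.5 CPM in WT LT-HSC, against 0, 0.03498, 0 and 0 CPM in WT MPP3, which is 765 counts against 1 count, a ratio of 1443 with a 95% counting interval of 258 to 57062. Efna1, the ligand ephrin A1, had 33.5 and 20.3 CPM in WT LT-HSC, against 0.0408, 0.03498, 0 and 0 CPM in WT MPP3, which is 1549 counts against 2, a ratio of 1461 (404 to 12072). Rhoj, a small GTPase of endothelium, had 12.4 and 17.3 CPM in WT LT-HSC, against 0.0408, 0.03498, 0 and 0 CPM in WT MPP3, which is 862 counts against 2, a ratio of 813 (224 to 6723). These 3 were close to or at 0 in every WT MPP3 library (edgeR adjusted p = 0.00284, 0.0225 and 0.00682). Clca3a1, of a family of chloride channel regulators, had 19.9 and 16.7 CPM in WT LT-HSC, against 0.163, 0.06995, 0.0352 and 0 CPM in WT MPP3 (log2 fold change 8.04 ± 1.47, edgeR adjusted p = 0.008). Runx1t1, a corepressor also called ETO, had 26.7 and 26.7 CPM in WT LT-HSC, against 0.448, 0.315, 0 and 0.0362 CPM in WT MPP3 (log2 fold change 7.05 ± 1.67, edgeR adjusted p = 0.0456). Nupr1, a stress-induced nuclear protein, had 50.1 and 36.9 CPM in WT LT-HSC, against 1.02, 1.08, 0 and 0.0362 CPM in WT MPP3 (log2 fold change 6.34 ± 1.05, edgeR adjusted p = 0.00386). The groups were again apart, and no WT MPP3 library held more than 1.08 CPM of any of these 3 genes. Tgm2, a protein-crosslinking transglutaminase, averaged 71.7 ± 25.2 CPM in WT LT-HSC and 0.921 ± 0.683 CPM in WT MPP3 (log2 fold change 6.27 ± 0.93, edgeR adjusted p = 0.00149). Tm4sf1, Rhoj, Clca3a1, Nupr1 and Tgm2 kept their calls without any 1 of the 6 libraries. Efna1 and Runx1t1 lost their calls without WT LT-HSC 1, WT LT-HSC 2, WT MPP3 1, WT MPP3 2, WT MPP3 3 or WT MPP3 4 (edgeR adjusted p from 0.0638 to 0.2).

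Of 14 tested markers of endothelium and stroma 0 were called higher and 2 lower, against 0.72% and 0.379% of all tested genes. Their median was -0.04, and the summed level was 109 and 114 CPM in WT LT-HSC, against 181, 156, 154 and 198 CPM in WT MPP3. Pecam1, an adhesion molecule of endothelium and leukocytes, averaged 39.5 ± 5.86 CPM in WT LT-HSC and 99.2 ± 13.1 CPM in WT MPP3 (log2 fold change -1.33 ± 0.32, edgeR adjusted p = 0.047). Pdgfrb, the receptor beta of platelet-derived growth factor, averaged 3.99 ± 0.224 CPM in WT LT-HSC and 32.6 ± 10.04 CPM in WT MPP3 (log2 fold change -3.03 ± 0.68, edgeR adjusted p = 0.0343). Pecam1 and Pdgfrb lost their calls without WT LT-HSC 1, WT LT-HSC 2, WT MPP3 1, WT MPP3 3 or WT MPP3 4 (edgeR adjusted p from 0.0581 to 0.581). Pecam1 lost its call without WT MPP3 2 (edgeR adjusted p = 0.0657).

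Imprinted genes, which are expressed from 1 parental allele and many of which restrain growth, were higher in WT LT-HSC. Of 19 tested, 5 were called higher and 0 lower, against 0.72% and 0.379% of all tested genes. Among the 19, 16 were positive and 12 did not overlap upward, where 14.2% of all tested genes did not. Their median was 1.78. Grb10, an adaptor that dampens insulin and IGF receptor signalling (ENSMUSG00000020176.17, chromosome 11, 11930508 to 12038683 on the minus strand in mm10), had the smallest p of all genes and 60.4 and 60.1 CPM in WT LT-HSC, against 5.58, 4.302, 2.75 and 3.47 CPM in WT MPP3 (log2 fold change 3.90 ± 0.31, edgeR adjusted p = 2.90e-06). The lower WT LT-HSC library lay 10.8-fold above the highest WT MPP3 library. Cdkn1c, the cyclin-dependent kinase inhibitor p57 and a brake on stem cell cycling, had 22.7 and 37.7 CPM in WT LT-HSC, against 1.47, 5.25, 2.29 and 0.506 CPM in WT MPP3 (log2 fold change 3.66 ± 0.67, edgeR adjusted p = 0.00767). Ndn, the growth suppressor necdin, had 51.4 and 80.5 CPM in WT LT-HSC, against 2.24, 8.04, 3.45 and 3.55 CPM in WT MPP3 (log2 fold change 3.93 ± 0.78, edgeR adjusted p = 0.0152) and was added after its values were seen. WT MPP3 2 was the highest WT MPP3 library for Cdkn1c and for Ndn, below both WT LT-HSC libraries. Phlda2, which limits placental growth, averaged 18.6 ± 3.69 CPM in WT LT-HSC and 2.33 ± 1.66 CPM in WT MPP3 (log2 fold change 2.99 ± 0.54, edgeR adjusted p = 0.00694), and Sgce, a sarcoglycan, averaged 71.3 ± 0.808 CPM in WT LT-HSC and 31.3 ± 5.05 CPM in WT MPP3 (log2 fold change 1.19 ± 0.22, edgeR adjusted p = 0.00873). Grb10 kept its call without any 1 of the 6 libraries. Ndn and Sgce lost their calls without WT LT-HSC 1 (edgeR adjusted p from 0.0632 to 0.12). Cdkn1c, Ndn, Phlda2 and Sgce lost their calls without WT LT-HSC 2 (edgeR adjusted p from 0.0993 to 0.136). Ndn lost its call without WT MPP3 1, WT MPP3 3 or WT MPP3 4 (edgeR adjusted p from 0.0551 to 0.0621).

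Among 26 tested cell cycle inhibitors and quiescence genes, 2 were called higher and 1 lower, against 0.72% and 0.379% of all tested genes. Their median was 0.26. Fhl1, a LIM domain protein, had 75.1 and 75.6 CPM in WT LT-HSC, against 3.42, 1.75, 1.06 and 4.703 CPM in WT MPP3 (log2 fold change 4.78 ± 0.57, edgeR adjusted p = 0.000186), and Cdkn1c is given above. Cdk6, the kinase that drives stem and progenitor cells out of quiescence, had 322 and 333 CPM in WT LT-HSC, against 792, 709, 699.7 and 779.8 CPM in WT MPP3 (log2 fold change -1.19 ± 0.28, edgeR adjusted p = 0.045). Cdkn1a, the inhibitor p21, pointed the other way from Cdkn1c, with 4.22 and 3.84 CPM in WT LT-HSC, against 14.3, 18.1, 28.04 and 33.9 CPM in WT MPP3 (-2.55 ± 0.64, edgeR adjusted p = 0.0658). In all 3 genes the groups did not overlap. Fhl1 kept its call without any 1 of the 6 libraries. Cdk6 lost its call without WT LT-HSC 1, WT LT-HSC 2, WT MPP3 1, WT MPP3 2, WT MPP3 3 or WT MPP3 4 (edgeR adjusted p from 0.0825 to 0.473).

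No gene of the replication and division lists passed in the fit of all 21 libraries. Over all tested genes 1.1% passed, so 0 calls in lists of 44 lies near that share. Of 44 tested DNA replication genes 0 were called in edgeR, 41 were negative and 20 did not overlap downward, with a median of -0.50. Mcm2, a subunit of the replicative helicase, had 202 and 148 CPM in WT LT-HSC, against 190.1, 233, 443 and 276 CPM in WT MPP3 (-0.71 ± 0.42, edgeR adjusted p = 0.706), so that WT MPP3 1 fell inside the WT LT-HSC range. Mcm3, another subunit, had 269.7 and 201 CPM in WT LT-HSC, against 291, 299, 428 and 305 CPM in WT MPP3 (-0.49 ± 0.26, edgeR adjusted p = 0.612), where WT MPP3 3 was the high library. Of 44 tested mitosis genes 0 were called, 37 were negative and 6 did not overlap downward, with a median of -0.24. Over all tested genes 10990 of 21100 were negative and 12.0% did not overlap downward. The 6 of 44 mitosis genes without overlap lay near that share. The 6-library fit called 2 replication genes and 0 mitosis genes lower. In KO LT-HSC against KO MPP3, 0 replication genes and 2 mitosis genes were called lower, and 39 and 43 of the 44 were negative.

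**Figure D3:**
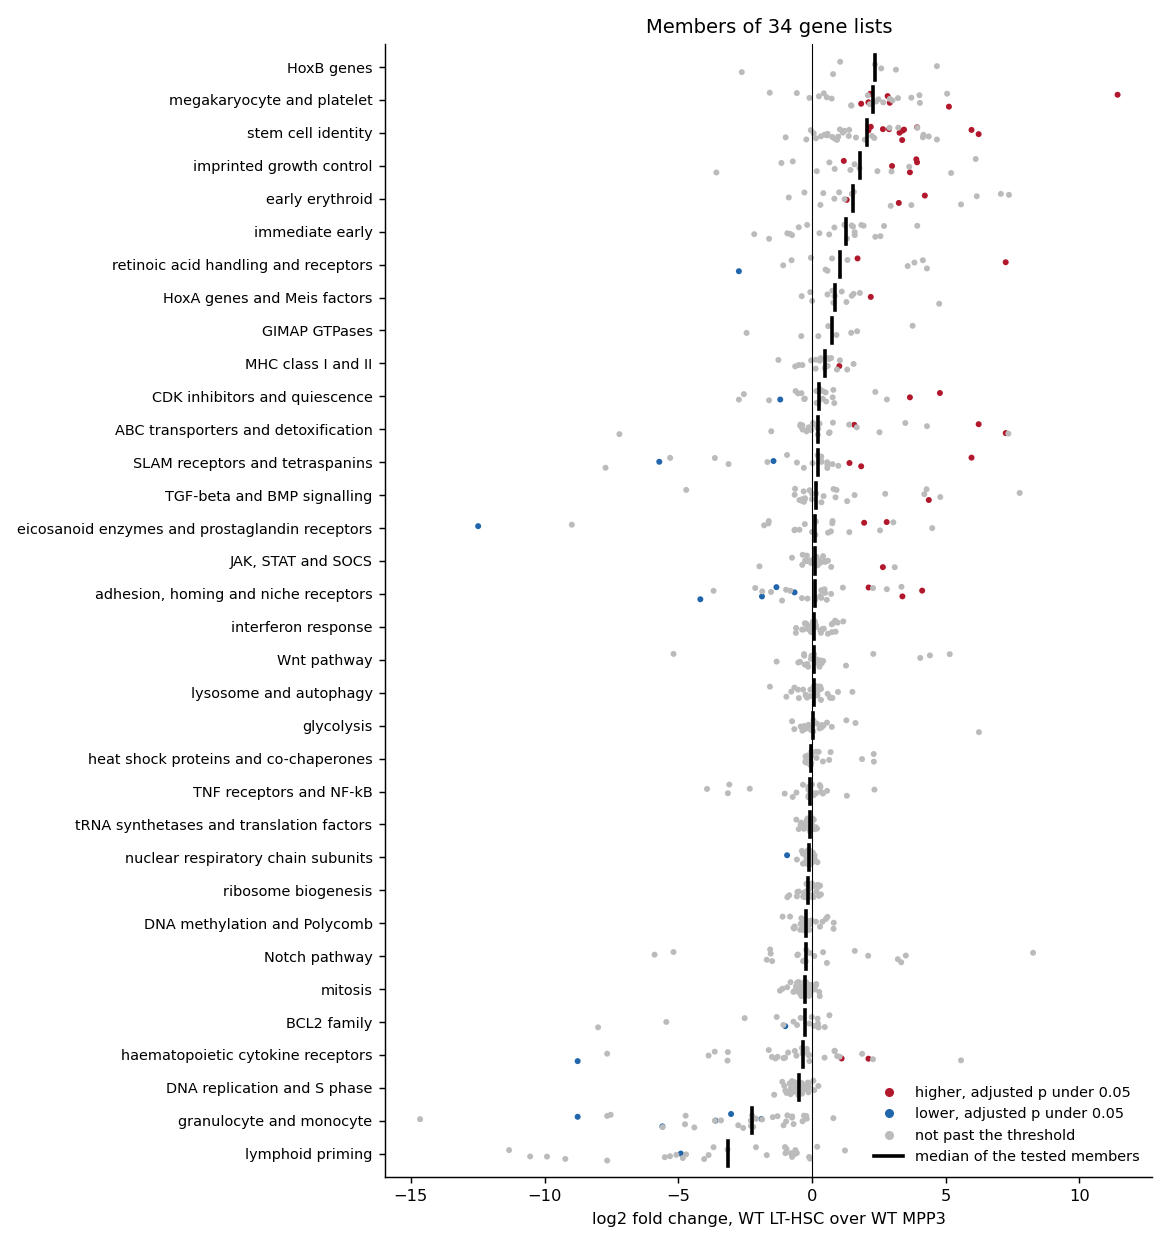
Each row is 1 of the 34 lists, ordered by the median of its tested members, and each point is 1 member at its log2 fold change of WT LT-HSC over WT MPP3. Red and blue points passed the edgeR threshold, grey points did not, and the black bar is the median, highest in the HoxB genes (2.36) and lowest in the lymphoid priming genes (-3.16).

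Calls in lists of signalling genes are given beside a share of 1.1% called over all tested genes. Tgfbr3, the co-receptor betaglycan, had 102 and 86.7 CPM in WT LT-HSC, against 3.83, 4.65, 4.47 and 5.25 CPM in WT MPP3 (log2 fold change 4.37 ± 0.49, edgeR adjusted p = 0.000108) and was the 1 call among 27 tested genes of TGF-beta and BMP signalling (median 0.16). Cish, a feedback inhibitor that STAT5 induces, had 91.4 and 59.7 CPM in WT LT-HSC, against 15.6, 13.8, 6.69 and 11.9 CPM in WT MPP3 (log2 fold change 2.65 ± 0.43, edgeR adjusted p = 0.00329) and was the 1 call among 22 tested JAK, STAT and SOCS genes (median 0.13). Its relative Socs2 had 50.9 and 46.7 CPM in WT LT-HSC, against 4.85, 3.36, 7.54 and 7.09 CPM in WT MPP3 (3.09 ± 0.93, edgeR adjusted p = 0.162), also without overlap. Among 33 tested cytokine receptors 2 were called higher and 1 lower (median -0.35), Il11ra1 and Csf1r among them. Of the receptors 23 were negative. No overlap was seen downward in 14 and upward in 7, against 12.0% and 14.2% of all tested genes. The 6-library fit called 3 higher and 8 lower, against 1.83% and 1.76% of all genes in that fit. Il11ra1, the receptor of interleukin 11, averaged 73.8 ± 6.25 CPM in WT LT-HSC and 34.2 ± 4.31 CPM in WT MPP3 (log2 fold change 1.11 ± 0.21, edgeR adjusted p = 0.0117). Of the Notch (22 tested), Wnt (23) and TNF and NF-kB (25) lists 0 members were called, with medians of -0.22, 0.08 and -0.07. Tgfbr3 kept its call without any 1 of the 6 libraries. Cish and Il11ra1 lost their calls without WT LT-HSC 1 (edgeR adjusted p from 0.0943 to 0.101). Il11ra1 lost its call without WT LT-HSC 2 (edgeR adjusted p = 0.198).

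Enzymes of prostanoid synthesis were higher and a prostanoid receptor was lower. Tbxas1, thromboxane synthase, had 295 and 274 CPM in WT LT-HSC, against 68.1, 75.5, 67.5 and 83.3 CPM in WT MPP3 (log2 fold change 1.95 ± 0.22, edgeR adjusted p = 0.000108). Ptgs1, cyclooxygenase 1, had 118 and 112 CPM in WT LT-HSC, against 27.6, 14.9, 10.7 and 13.1 CPM in WT MPP3 (log2 fold change 2.79 ± 0.35, edgeR adjusted p = 0.000256). Ptger2, the prostaglandin E2 receptor EP2, had 0 and 0 CPM in WT LT-HSC, against 34.1, 14.5, 30.3 and 30.2 CPM in WT MPP3 (edgeR adjusted p = 0.00591). With a floor of 3 counts over the 2 libraries in place of 0, it was 520.5-fold lower in WT LT-HSC. The 95% counting interval had a lower limit of 423-fold. These were the 3 calls among 23 tested eicosanoid genes, whose median was 0.13, where 1.1% of all tested genes were called. Tbxas1 and Ptgs1 kept their calls without any 1 of the 6 libraries. Ptger2 lost its call without WT LT-HSC 1 or WT LT-HSC 2 (edgeR adjusted p from 0.108 to 0.12).

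Of 14 tested genes of retinoic acid handling 2 were called higher and 1 lower (median 1.04), against 0.72% and 0.379% of all tested genes. Aldh1a1, which oxidises retinaldehyde to retinoic acid, had 115 and 100.1 CPM in WT LT-HSC, against 1.96, 0.909, 0 and 0 CPM in WT MPP3 (log2 fold change 7.24 ± 1.30, edgeR adjusted p = 0.008). With only the libraries numbered 1 and 2 compared, Aldh1a1 did not pass (edgeR adjusted p = 0.0632). Dhrs3, which reduces retinaldehyde back to retinol, had 23.4 and 21.3 CPM in WT LT-HSC, against 111, 174, 143 and 167 CPM in WT MPP3 (log2 fold change -2.73 ± 0.55, edgeR adjusted p = 0.0171). No library of one group lay within the other in these genes. Of 28 tested transporters and detoxification enzymes 3 were called higher and 0 lower (median 0.23), Aldh1a1 among them. Abcg2, the drug efflux pump behind the side population of stem cells, had 246 and 244 CPM in WT LT-HSC, against 92.5, 90.7, 89.1 and 55.2 CPM in WT MPP3 (log2 fold change 1.58 ± 0.22, edgeR adjusted p = 0.000864). Sult1a1, a phenol sulfotransferase, averaged 86.9 ± 2.44 CPM in WT LT-HSC and 1.16 ± 1.496 CPM in WT MPP3 (log2 fold change 6.23 ± 1.36, edgeR adjusted p = 0.029). Aldh1a1 and Abcg2 kept their calls without any 1 of the 6 libraries. Dhrs3 and Sult1a1 lost their calls without WT LT-HSC 1 or WT LT-HSC 2 (edgeR adjusted p from 0.121 to 0.259). Sult1a1 lost its call without WT MPP3 2, WT MPP3 3 or WT MPP3 4 (edgeR adjusted p from 0.0811 to 0.111).

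Some genes of early erythroid cells were higher in WT LT-HSC. Of 18 tested early erythroid genes 3 were called higher and 0 lower, against 0.72% and 0.379% of all tested genes. Among the 18, 16 were positive and 15 did not overlap upward, where 14.2% of all tested genes did not. Their median was 1.53. Car2, carbonic anhydrase 2, had 3130.1 and 2896 CPM in WT LT-HSC, against 1443, 1605, 791 and 1063 CPM in WT MPP3 (log2 fold change 1.30 ± 0.28, edgeR adjusted p = 0.025). Apoe, apolipoprotein E, had 969 and 647 CPM in WT LT-HSC, against 119, 52.01, 60.4 and 109 CPM in WT MPP3 (log2 fold change 3.25 ± 0.58, edgeR adjusted p = 0.00694). Aqp1, a water channel of red cells, averaged 12.6 ± 0.239 CPM in WT LT-HSC and 0.675 ± 0.493 CPM in WT MPP3 (log2 fold change 4.22 ± 0.95, edgeR adjusted p = 0.0337). Aqp1 did not pass in KO (edgeR adjusted p = 0.0864). None of the 3 overlapped, while haemoglobin transcripts stayed near the floor, with Hba-a1 at 0.281 and 1.29 CPM in WT LT-HSC, against 0.652, 0.175, 0.423 and 0.506 CPM in WT MPP3. The 14 matched erythroid markers, of which 13 were tested, summed to 3439 and 3189 CPM in WT LT-HSC, against 1487, 1625, 807 and 1097 CPM in WT MPP3. Car2 was their only call and made up most of the sum in each library, so the sums mainly restate Car2. Il4, the cytokine interleukin 4, had 26.99 and 27.6 CPM in WT LT-HSC, against 0.897, 2.03, 0.986 and 1.63 CPM in WT MPP3 (log2 fold change 4.30 ± 0.57, edgeR adjusted p = 0.000468). Slc18a2, the vesicular monoamine transporter, averaged 225 ± 50.8 CPM in WT LT-HSC and 64.6 ± 18.5 CPM in WT MPP3 (log2 fold change 1.80 ± 0.35, edgeR adjusted p = 0.0135). They were the 2 calls among 11 tested mast cell and basophil markers, of which 4 were positive and 7 negative, with a median of -1.93. Cpa3, a mast cell carboxypeptidase, had 8.504 and 10.1 CPM in WT LT-HSC, against 50.7, 21.9, 48.4 and 155 CPM in WT MPP3 (-2.89 ± 1.22, edgeR adjusted p = 0.459), with no overlap, while the basophil protease gene Mcpt8 had 0 and 0 CPM in WT LT-HSC, against 7.01, 8.15, 6.59 and 18.2 CPM in WT MPP3 and Mcpt4 was at 0 in all 6 libraries. Il4 kept its call without any 1 of the 6 libraries. Car2, Apoe, Aqp1 and Slc18a2 lost their calls without WT LT-HSC 1 (edgeR adjusted p from 0.11 to 0.276). Car2, Aqp1 and Slc18a2 lost their calls without WT LT-HSC 2 or WT MPP3 3 (edgeR adjusted p from 0.0547 to 0.166). Aqp1 lost its call without WT MPP3 1 or WT MPP3 2 (edgeR adjusted p from 0.0731 to 0.112). Car2 and Aqp1 lost their calls without WT MPP3 4 (edgeR adjusted p from 0.0801 to 0.113).

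Genes of granulocytes and monocytes were lower in WT LT-HSC. Of 36 tested members 0 were called higher and 5 lower, against 0.72% and 0.379% of all tested genes. Among the 36, 35 were negative and 28 did not overlap downward, where 12.0% of all tested genes did not. Their median was -2.23. Csf1r, the receptor of macrophage colony-stimulating factor, had 0.0351 and 0.06797 CPM in WT LT-HSC, against 8.56, 17.1, 54.6 and 17.9 CPM in WT MPP3, which is 3 counts against 2743, a ratio of 485 with a 95% counting interval of 166 to 2352 in favour of WT MPP3 (edgeR adjusted p = 0.0491). Ccl9, a chemokine of myeloid cells, had 6.29 and 7.31 CPM in WT LT-HSC, against 281, 211, 420.4 and 402 CPM in WT MPP3 (log2 fold change -5.59 ± 1.25, edgeR adjusted p = 0.035). Plac8, a small cysteine-rich protein of myeloid and lymphoid progenitors, had 217 and 125 CPM in WT LT-HSC, against 1411, 1074, 1753 and 1330.1 CPM in WT MPP3 (log2 fold change -3.03 ± 0.64, edgeR adjusted p = 0.0223). The groups were apart in all 3. Nkg7, a granule protein first known from natural killer cells, averaged 117 ± 8.41 CPM in WT LT-HSC and 434 ± 51.3 CPM in WT MPP3 (log2 fold change -1.89 ± 0.43, edgeR adjusted p = 0.0354). Csf1r, Ccl9, Plac8 and Nkg7 lost their calls without WT LT-HSC 1, WT LT-HSC 2 or WT MPP3 3 (edgeR adjusted p from 0.0547 to 0.544). Csf1r, Ccl9 and Nkg7 lost their calls without WT MPP3 1 or WT MPP3 4 (edgeR adjusted p from 0.0565 to 0.081). Csf1r and Nkg7 lost their calls without WT MPP3 2 (edgeR adjusted p from 0.0755 to 0.0817).

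Granule genes of the same lineage were uneven within WT MPP3. Mpo, which encodes myeloperoxidase, had 7.696 and 8.19 CPM in WT LT-HSC, against 715, 584, 3294 and 1282 CPM in WT MPP3 (-7.53 ± 2.35, edgeR adjusted p = 0.203). Its lowest WT MPP3 library lay 71.3-fold above the higher WT LT-HSC library, and it passed in the fit of the 6 libraries alone (edgeR adjusted p = 0.0104). Elane, which encodes neutrophil elastase, had 0.562 and 1.26 CPM in WT LT-HSC, against 0.652, 0.3498, 736 and 3.65 CPM in WT MPP3 (-7.66 ± 4.27, edgeR adjusted p = 0.668), so that WT MPP3 3 alone set its mean. In the 6-library fit 19 of the 36 members were called lower, against 1.76% of all genes in that fit.

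Further lower genes were taken by fold change, level or list. Cst7, the protease inhibitor cystatin F, had 1.93 and 1.09 CPM in WT LT-HSC, against 67.4, 74.4, 151 and 123 CPM in WT MPP3 (log2 fold change -6.10 ± 0.99, edgeR adjusted p = 0.0032). Padi2, a peptidylarginine deiminase, averaged 0.803 ± 0.738 CPM in WT LT-HSC and 35.3 ± 19.9 CPM in WT MPP3 (log2 fold change -5.45 ± 1.12, edgeR adjusted p = 0.0198). Serpinb1a, an inhibitor of neutrophil proteases, averaged 197 ± 42.3 CPM in WT LT-HSC and 692 ± 64.2 CPM in WT MPP3 (log2 fold change -1.82 ± 0.42, edgeR adjusted p = 0.0401). Cd300lb, an activating receptor of myeloid cells, had 0 and 0 CPM in WT LT-HSC, against 19.7, 17.8, 24.4 and 17.5 CPM in WT MPP3 (edgeR adjusted p = 0.0354). By the same floor it was 383-fold lower in WT LT-HSC, with a lower limit of 311 from the counting interval. Ifi209, of the interferon-inducible family of DNA sensors, had 0 and 0 CPM in WT LT-HSC, against 49.4, 11.8, 20.3 and 13.5 CPM in WT MPP3 (edgeR adjusted p = 0.0203). By the same floor it was 442-fold lower in WT LT-HSC, with a lower limit of 359 from the counting interval. Clec2i, a C-type lectin, had 0 and 0.03399 CPM in WT LT-HSC, against 37.1, 48.5, 19.8 and 17.9 CPM in WT MPP3, which is 1 count against 3353, a ratio of 1778 with a 95% counting interval of 319 to 70240.3 in favour of WT MPP3 (edgeR adjusted p = 0.0187). All 6 genes were without overlap, and 2 of them had no count in WT LT-HSC. Ifi209 has close relatives beside it, and how reads shared with them were counted is not known here. Cst7, Padi2, Serpinb1a, Cd300lb, Ifi209 and Clec2i lost their calls without WT LT-HSC 1 or WT LT-HSC 2 (edgeR adjusted p from 0.0751 to 0.551). Serpinb1a and Cd300lb lost their calls without WT MPP3 1, WT MPP3 2, WT MPP3 3 or WT MPP3 4 (edgeR adjusted p from 0.0587 to 0.0981).

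Genes of lymphoid priming had the lowest median of the 34 lists, -3.16. Of 29 tested 0 were called higher and 1 lower, against 0.72% and 0.379% of all tested genes. Among the 29, 27 were negative and 21 did not overlap downward, where 12.0% of all tested genes did not. In the 6-library fit 14 were called lower, against 1.76% of all genes in that fit. Satb1, a chromatin organiser of lymphoid cells and the 1 call, had 6.82 and 11.5 CPM in WT LT-HSC, against 267, 257, 203 and 369 CPM in WT MPP3 (log2 fold change -4.90 ± 1.02, edgeR adjusted p = 0.0222). Flt3, the cytokine receptor that marks lymphoid-primed progenitors, had 61.8 and 87.8 CPM in WT LT-HSC, against 923, 1161, 1017 and 1262 CPM in WT MPP3 (-3.87 ± 1.59, edgeR adjusted p = 0.439). Dntt, which encodes terminal deoxynucleotidyl transferase of antigen receptor rearrangement, had 1.58 and 0 CPM in WT LT-HSC, against 1181, 885, 1434 and 1213 CPM in WT MPP3 (-10.54 ± 3.62, edgeR adjusted p = 0.288). The highest WT MPP3 library was 1.37-fold over the lowest for Flt3 and 1.62-fold for Dntt, and the nearest libraries of the groups lay 10.5 and 559-fold apart. Immunoglobulin genes took 0.000781% and 0.000455% of the counts in WT LT-HSC, against 0.0752% to 0.0865% in WT MPP3. B cell markers, 13 tested with 0 called, summed to 108 and 122 CPM in WT LT-HSC, against 154, 184, 143 and 158 CPM in WT MPP3. Satb1 lost its call without WT LT-HSC 1 or WT LT-HSC 2 (edgeR adjusted p from 0.233 to 0.38).

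The fit of all 21 libraries gave Flt3 and Dntt no call although the 6 libraries did not overlap, and its spread included WT MPP2. Flt3 had 301, 591, 40.9 and 6.96 CPM in the WT MPP2 libraries numbered 1 to 4, and Dntt 530.5, 917, 11.9 and 0 CPM. Within WT MPP2 the highest library was 84.8-fold over the lowest for Flt3, with libraries 1 and 2 high and libraries 3 and 4 low, and Dntt showed the same split down to 0 in library 4. With the 6 libraries alone the edgeR adjusted p was 0.000638 for Flt3 and 0.00411 for Dntt. That fit leaves out the KO libraries as well as WT MPP2, and why the fits differ was not tested. Cd34, a surface sialomucin absent from most adult mouse LT-HSC and named after its values were seen, had 386 and 389 CPM in WT LT-HSC, against 1331, 1443, 1377 and 1482 CPM in WT MPP3 (-1.86 ± 0.67, edgeR adjusted p = 0.31). Its WT MPP2 values were 832, 1135, 270.5 and 174 CPM, and its edgeR adjusted p was 0.000378 with the 6 libraries alone.

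**Figure D4:**
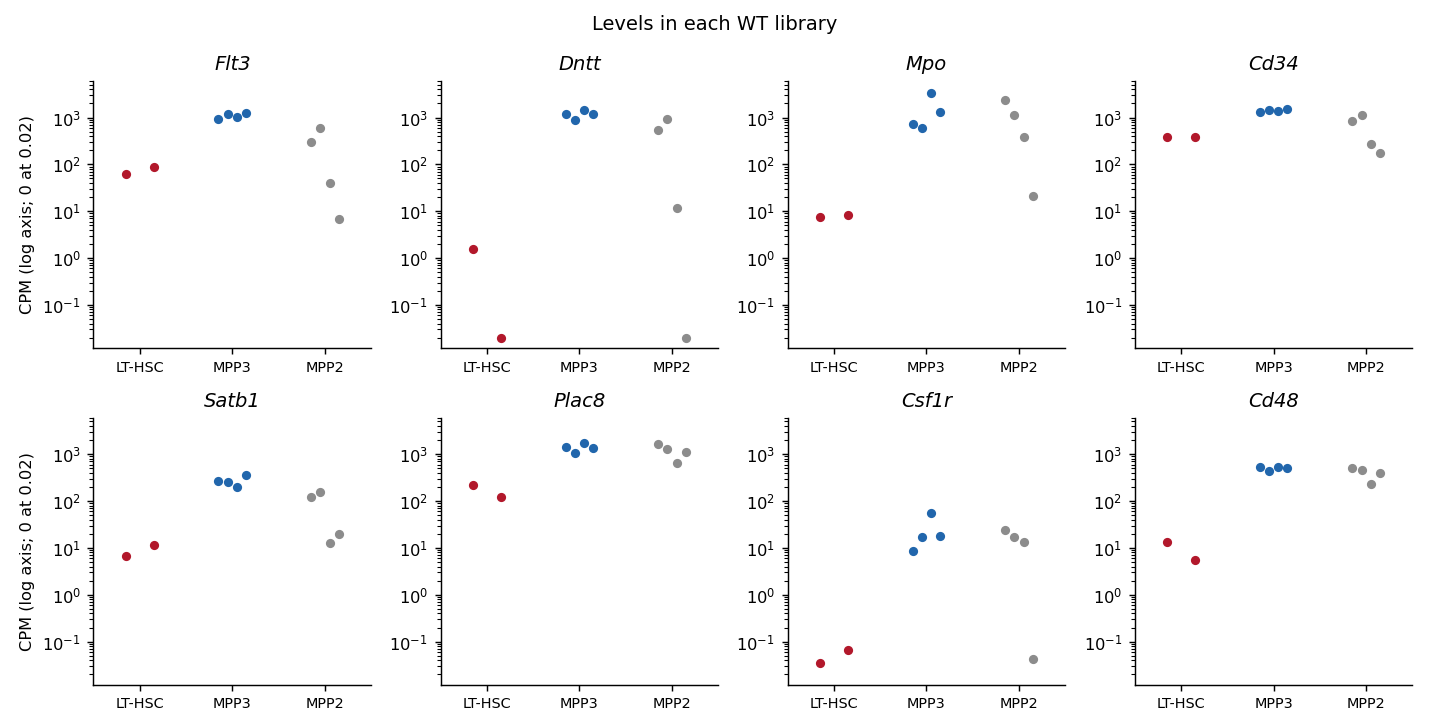
Level in CPM on a log axis for 8 genes in each WT library, with WT LT-HSC in red (2 libraries), WT MPP3 in blue (4) and WT MPP2 in grey (4), and 0 drawn at 0.02. Libraries stand in the order of their numbers within a group. Flt3, Dntt and Cd34 are close together within WT MPP3 and spread widely within WT MPP2, while Cd48 and Plac8 are close together in both.

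Surface and adhesion genes moved in both directions. Of 30 tested adhesion, homing and niche genes 3 were called higher and 4 lower (median 0.12), against 0.72% and 0.379% of all tested genes. Jam2, a junctional adhesion molecule, averaged 25.5 ± 2.51 CPM in WT LT-HSC and 1.46 ± 1.002 CPM in WT MPP3 (log2 fold change 4.12 ± 0.88, edgeR adjusted p = 0.0251). Itgal, the alpha chain of the leukocyte integrin LFA-1, had 4.39 and 0.8497 CPM in WT LT-HSC, against 55.5, 41.8, 35.05 and 57.1 CPM in WT MPP3 (log2 fold change -4.17 ± 0.90, edgeR adjusted p = 0.027). Cd47, the surface signal that restrains phagocytosis, had 704 and 744 CPM in WT LT-HSC, against 1094, 1075, 1202 and 1179.7 CPM in WT MPP3 (log2 fold change -0.65 ± 0.13, edgeR adjusted p = 0.0161). The shift of Cd47 was the smallest of the 80 lower genes, and its groups were still apart. Adgrg3, the adhesion G protein-coupled receptor GPR97 (ENSMUSG00000060470.7, chromosome 8, 95017692 to 95045250 on the plus strand), had 51.3 and 42.04 CPM in WT LT-HSC, against 531, 496, 623 and 748 CPM in WT MPP3 (log2 fold change -3.68 ± 0.45, edgeR adjusted p = 0.000224). Among 23 tested SLAM receptors and tetraspanins 3 were called higher and 2 lower (median 0.21), Slamf1 and Cd48 among them. The tetraspanin Cd63 averaged 498 ± 14.05 CPM in WT LT-HSC and 188 ± 36.8 CPM in WT MPP3 (log2 fold change 1.40 ± 0.23, edgeR adjusted p = 0.0032). The tetraspanin Cd37 averaged 73.8 ± 2.43 CPM in WT LT-HSC and 200.1 ± 37.1 CPM in WT MPP3 (log2 fold change -1.44 ± 0.26, edgeR adjusted p = 0.00823). Jam2 did not pass in the fit of the 6 libraries alone (edgeR adjusted p = 0.0809) or in KO (edgeR adjusted p = 0.0546). Adgrg3 kept its call without any 1 of the 6 libraries. Jam2, Itgal, Cd47 and Cd37 lost their calls without WT LT-HSC 1 (edgeR adjusted p from 0.086 to 0.309). Jam2, Itgal, Cd47, Cd63 and Cd37 lost their calls without WT LT-HSC 2 (edgeR adjusted p from 0.0549 to 0.381). Jam2 and Itgal lost their calls without WT MPP3 1 (edgeR adjusted p = 0.0537). Jam2 lost its call without WT MPP3 2 (edgeR adjusted p = 0.0546). Cd47 lost its call without WT MPP3 3 (edgeR adjusted p = 0.056). Jam2, Itgal and Cd47 lost their calls without WT MPP3 4 (edgeR adjusted p from 0.0523 to 0.0745).

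Further single genes differed outside these groups. H2afy, which encodes the histone variant macroH2A1, had 480.2 and 519 CPM in WT LT-HSC, against 2106, 2550.3, 3450.1 and 2969 CPM in WT MPP3 (log2 fold change -2.47 ± 0.48, edgeR adjusted p = 0.0132). Serpina3g, an intracellular serine protease inhibitor, had 1001 and 833 CPM in WT LT-HSC, against 343, 315, 208 and 275 CPM in WT MPP3 (log2 fold change 1.69 ± 0.36, edgeR adjusted p = 0.0257). Bex6, of the Bex family, had 6.33 and 5.37 CPM in WT LT-HSC, against 141, 145, 254 and 133 CPM in WT MPP3 (log2 fold change -4.85 ± 0.83, edgeR adjusted p = 0.00484). None overlapped, and WT MPP3 3 was the high library for Bex6. Bcl2, the survival factor, averaged 72.3 ± 11.6 CPM in WT LT-HSC and 144 ± 14.04 CPM in WT MPP3 (log2 fold change -0.998 ± 0.24, edgeR adjusted p = 0.0491) and was the 1 call among 18 tested genes of its family (median -0.26). H2-Q6, a non-classical MHC class I gene, averaged 374 ± 56.2 CPM in WT LT-HSC and 184 ± 41.5 CPM in WT MPP3 (log2 fold change 1.02 ± 0.23, edgeR adjusted p = 0.0337) and was the 1 call among 21 tested MHC genes (median 0.48). Serpina3g and H2-Q6 belong to clusters of near-identical genes, so their single values are uncertain. Bcl2 and H2-Q6 did not pass in KO (edgeR adjusted p = 0.215 and 0.147). H2afy, Serpina3g, Bex6, Bcl2 and H2-Q6 lost their calls without WT LT-HSC 1 or WT LT-HSC 2 (edgeR adjusted p from 0.12 to 0.638). Bcl2 lost its call without WT MPP3 1 (edgeR adjusted p = 0.095). Serpina3g, Bcl2 and H2-Q6 lost their calls without WT MPP3 2, WT MPP3 3 or WT MPP3 4 (edgeR adjusted p from 0.0545 to 0.132).

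Lists of general cell function showed almost no calls, where 1.1% of all tested genes were called. Ndufa4, associated with the last complex of the respiratory chain, averaged 495 ± 21.5 CPM in WT LT-HSC and 944 ± 148 CPM in WT MPP3 (log2 fold change -0.93 ± 0.20, edgeR adjusted p = 0.0282) and was the 1 call among 45 tested respiratory chain genes, of which 40 were negative (median -0.10). Ndufa4 lost its call without WT LT-HSC 1, WT LT-HSC 2, WT MPP3 1 or WT MPP3 3 (edgeR adjusted p from 0.0607 to 0.352). Of 40 tested genes of ribosome biogenesis 0 were called (median -0.14), and 0 of 30 tested tRNA synthetases and translation factors (median -0.08). Glycolysis (22 tested, median 0.05), interferon response (35, 0.08), lysosome and autophagy (32, 0.07), heat shock (24, -0.03) and DNA methylation and Polycomb (28, -0.22) also had 0 calls. So did the GIMAP GTPases (8 tested, median 0.76) and the immediate early genes (22 tested, median 1.26). Immediate early genes were uneven within WT LT-HSC, where Fos had 195 CPM in WT LT-HSC 1 and 11.1 CPM in WT LT-HSC 2.

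Markers of other mature cells were mostly uncalled, where 1.1% of all tested genes were called. Of the 15 tested neutrophil markers 0 were called, and none was without overlap. T and NK cell markers had 1 call of 12 tested, Nkg7, and summed to 218 and 152 CPM in WT LT-HSC, against 542, 645, 542 and 528 CPM in WT MPP3. Most of each sum was Nkg7, which is also in the granulocyte and monocyte list. It had 123 and 111 CPM in WT LT-HSC, against 398, 503, 444 and 392 CPM in WT MPP3. Macrophage and dendritic cell markers had 0 calls of 15 tested and summed to 14.7 and 26.9 CPM in WT LT-HSC, against 54.5, 32.2, 35.9 and 27.9 CPM in WT MPP3. Mast cell and basophil markers summed to 580 and 466 CPM in WT LT-HSC, against 237, 156, 227 and 522 CPM in WT MPP3. Sums of markers, here and above, cover all matched members of a list, tested or not. The part of these mature cells in the results was not tested.

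The same comparison in KO mice, whose 2 groups share no library with the WT groups, ran in the same directions. Both comparisons came from 1 fit of all 21 libraries with a shared spread for each gene. Passing the threshold in KO is therefore not independent of passing it in WT. KO LT-HSC against KO MPP3 gave 329 genes higher and 229 lower (1.56% and 1.09% of 21100, together 2.64%). All 152 genes higher in WT LT-HSC were also higher in KO LT-HSC, and all 80 lower ones were lower, where 66.6% of all tested genes had the same sign in both genotypes. Of the 152, 131 passed the edgeR threshold in KO as well (86.2% of the WT list and 39.8% of the KO list), and of the 80, 69 did (86.3% and 30.1%). Medians over these genes were 2.60 in KO and 2.81 in WT for the higher genes, and -2.36 in KO and -2.51 in WT for the lower. KO MPP3 1 and KO MPP3 2 stood apart from the other KO MPP3 libraries, with 25.8% of counts in immunoglobulin genes in the first and 12.8% in mitochondrial genes in the second. Without KO MPP3 1 the signs of all 152 and 80 were kept and 120 and 66 passed, and without KO MPP3 2 all signs were kept and 120 and 67 passed. Leaving out KO LT-HSC 2 or KO MPP3 4 turned the sign of 1 of the 152.

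**Figure D5:**
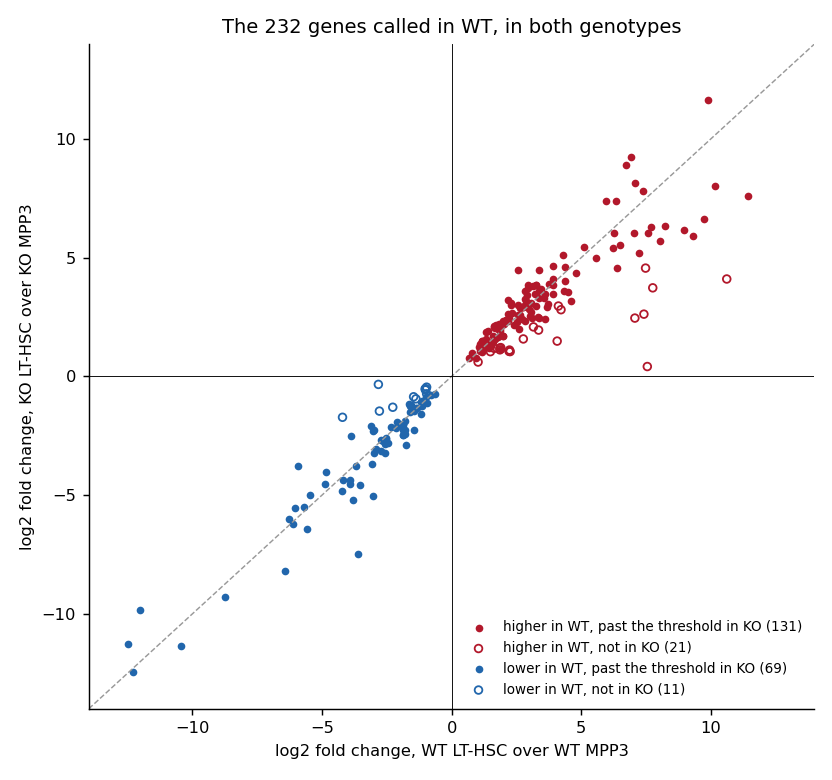
Each point is 1 of the 232 genes called in WT, at its log2 fold change of LT-HSC over MPP3 in WT (horizontal) and in KO (vertical), with red for higher and blue for lower in WT LT-HSC. Filled points passed the edgeR threshold in KO too (131 and 69), open points did not (21 and 11), and the dashed line marks equal values.

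Grb10 had 80.3, 66.3 and 80.2 CPM in KO LT-HSC, against 6.69, 9.67, 5.34 and 5.79 CPM in KO MPP3, and no KO library of one population lay within the other. Flt3, not called in WT, had 14.5, 40.05 and 9.71 CPM in KO LT-HSC, against 899, 645, 747 and 722 CPM in KO MPP3 (edgeR adjusted p = 0.0693 in KO). The difference between the 2 genotypes in the population contrast was tested itself: edgeR found 0 genes at an adjusted p under 0.05 of 21100, with 521 at an unadjusted p under 0.05, limma voom found 0 (544 unadjusted) and DESeq2 found 26 of 20664 (478 unadjusted).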

How the data were processed

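RNA was measured in sorted bone marrow populations, with Nextera XT libraries per the labels' protocols. The authors deposited raw read counts per gene in 1 table for the whole series, and the submitters' processing notes name STAR and the build mm10. No source used here names the counting program, annotation, strand setting or STAR version. There were 54446 gene IDs, 21 library columns and 0 columns of other samples. Coordinates of genes are from GENCODE M21.

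The test was edgeR 4.0.16's robust quasi-likelihood test (R 4.3.3) with TMM factors, in 1 fit of all 21 libraries in 6 groups. Genes were kept by filterByExpr with a minimum count of 10, which left 21100. A gene is called at a Benjamini-Hochberg adjusted p below 0.05. The SE was obtained by dividing the log2 fold change by the root of its F statistic. CPM are not corrected for gene length, so levels were not compared between genes. Counting intervals are exact at 95%. They and the floors cover counting error only, as the reads carry no molecular identifiers. The series' design names 4 pairs of WT and KO mice, and the labels do not tie libraries to mice, so p values measure the spread between these libraries. Alternatives were run in edgeR, DESeq2 1.42.0 and limma 3.58.1 (voom).

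The comparison, the gene lists and the tests were chosen with earlier results of these data known, so the lists are described by counts and medians without a test. The rule for named genes took, among called genes without overlap and at 10 CPM or more in the higher group, the 15 of largest fold change in each direction, the 5 of highest level in each direction beyond a log2 fold change of 1, and up to 4 members of smallest p in each of the 42 lists. The first 2 members of each list and Phf6, Slamf1, Cd48, Kit and Ly6a were always taken. Predicted gene models, Xist, Y-linked genes, receptor segments and histones were to be passed over in the choice by fold and level, but H2afy, a histone variant gene not caught by name, was taken by level and is printed. Of the 147 genes so taken, 81 are printed, and Cavin1, Cavin3, Ndn, Mecom and Cd34 were added after their values were seen. Some genes named by the rule are not reported here. Promoters were to be shown for called replication and mitosis genes, of which there were 0, and those shown instead were chosen after the values were seen. Promoter sequences are from RefSeq (GRCm38.p6), and shares of promoters used the first entry of each symbol.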

Additional observations from a re-analysis of the deposited data

Results flagged for a closer look

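Among the printed genes and the marker sums, 94 sets of the 4 WT MPP3 libraries were looked at for a library far from the other 3, and 12 had one, where chance gives about 1 in 20. WT MPP3 4 was low for Abcg2 at 55.2 CPM, against 89.1 to 92.5 CPM in the others, and high for Itga2b at 35.5 CPM, against 19.4 to 21.8 CPM. WT MPP3 3 was high for Bex6 at 254 CPM, against 133 to 145 CPM, for Mcm3 at 428 CPM, against 291 to 305 CPM, and for Elane at 736 CPM, against 0.350 to 3.65 CPM. It was low for Pdzk1ip1 at 24.3 CPM, against 57.6 to 61.7 CPM. WT MPP3 1 was high for Mllt3 at 44.4 CPM, against 11.9 to 15.01 CPM, and for the summed neutrophil markers at 1941 CPM, against 27.3 to 35.5 CPM. WT MPP3 2 was high for Mmrn1 at 67.8 CPM, against 23.7 to 26.6 CPM, and for the summed T and NK cell markers at 645.5 CPM, against 528 to 542 CPM. Of that sum in WT MPP3 2, Nkg7 made up 503 CPM. WT MPP3 2 also held the only counts of Cavin2 (0.0700 CPM) and Tm4sf1 (0.0350 CPM) in WT MPP3, which are 2 counts and 1 count. Cavin2, Tm4sf1, Abcg2, Mllt3, Mmrn1 and Pdzk1ip1 kept their calls without any 1 of the 6 libraries, and Bex6 kept its call without WT MPP3 3.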

How the results depend on the processing

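Against 152 genes higher and 80 lower in WT LT-HSC, edgeR with RLE factors gave 151 and 73, DESeq2 324 and 292, and limma voom 428 and 140. Testing all genes with any count gave 124 and 52, and genes with at least 1 CPM on average 177 and 94. The 6 libraries alone gave 384 and 368, and the 10 WT libraries 165 and 91. Within numbers 1 and 2 the counts were 95 and 103. Leaving out 1 library gave 47 to 99 higher and 4 to 48 lower. With a replicate block the counts were 217 and 127 over 21 libraries, and 130 and 66 over the 10 WT libraries. The labels do not say that a number marks 1 mouse, and the deviations of same-numbered WT LT-HSC and WT MPP3 libraries correlated at -0.00764 for number 1 and 0.0504 for number 2, with only 2 such pairs. In KO LT-HSC against KO MPP3, where 558 of 21100 genes passed, DESeq2 called 1325, limma voom 945, a replicate block 855, RLE factors 562, and leaving out 1 library 297 to 599.

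Of the 67 called genes printed, the number that held their call was 27 without WT LT-HSC 1, 26 without WT LT-HSC 2 and 44 to 52 without 1 WT MPP3 library. It was 43 with the replicate block over the 10 WT libraries, 48 within numbers 1 and 2, 50 with any count, 57 with the 10 WT libraries, and 62 to 67 under the other 6 alternatives. Among the uncalled genes, Elane was at 0.88 within numbers 1 and 2, and Ly6a at -0.35 and -0.23 with the replicate block over 21 and over the 10 WT libraries. Where these values differ the cause was not tested. A floor of 3 counts per library, 0.102 to 0.122 CPM, limits what can be said of genes near 0.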
